A study of Mus musculus with 18 samples.

Results

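The 10 genes described here are the Toll-like receptor genes Tlr1, Tlr2, Tlr3, Tlr4, Tlr6, Tlr7, Tlr8, Tlr9 and Tlr13 and the adaptor gene Myd88, taken by symbol from the 25731 symbols counted in mouse hearts. All 10 passed the filter on low counts, among 15088 genes tested. RNA of whole hearts from wild-type C57BL/6 mice, labelled as adult males, was sequenced 7 days after surgery, 1 library per animal. There were 6 hearts with ischemia-reperfusion and decursin (IR+Decursin), 6 with ischemia-reperfusion alone (IR) and 6 with sham surgery (SHAM). Decursin is a coumarin from the root of Angelica gigas. The sources used here give neither its dose and route, nor whether the other groups had a vehicle, nor the length of ischemia. Each of the 3 batches in the labels is 1 of these groups, so a batch and a group difference cannot be told apart. The comparisons ask how transcripts of these sensors differ after ischemia-reperfusion, and how they differ when decursin was given.

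Toll-like receptors recognise molecules of microbes and material released by damaged cells. Those at the cell surface bind mainly lipids and proteins, and those in endosomes bind nucleic acids. All of the receptors named here except Tlr3 signal through Myd88, which recruits IRAK kinases and Traf6 and so activates NF-kappaB and the transcription of cytokine genes; Tlr3 uses the adaptor Ticam1 (TRIF), and Tlr4 uses both. Macrophages and other myeloid cells carry most of these receptors. In the injured heart such cells enter from the blood, while Tlr3 and Tlr4 are also made by heart cells of other kinds.

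Libraries held 27.5 to 35.0 M counts (32.2 ± 1.96 M, mean ± SD over 18), and no 2 were identical. Levels are counts scaled to 1 M per library with TMM factors (CPM), and a gene was called when the quasi-likelihood F-test of edgeR, adjusted by Benjamini-Hochberg over all 15088 genes, gave a false discovery rate under 0.05. Xist, the transcript of the inactive X chromosome, had 14072 to 14232 counts in IR 3, IR 4 and IR+Decursin 2 and at most 8 in the other 15 libraries, and Ddx3y on the Y chromosome had 0 in those 3, which goes against the male label. The gene model Gm26917 took 7.54% of the counts of IR+Decursin 6. The 7 cardiomyocyte markers examined were detected in every library, with 36330 to 57780 CPM in sum in IR+Decursin, 31400 to 42190 in IR and 55490 to 65860 in SHAM. In tissue of mixed cells, more cells of a type and more RNA per cell cannot be told apart.

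In IR hearts, 8 of the 9 receptor genes and Myd88 were higher than in SHAM hearts, so 9 of the 10 genes rose and none fell. Over all genes tested, 25.3% were called higher. Tlr9, Tlr8 and Tlr1 rose 9.001-fold, 7.76-fold and 6.98-fold, Tlr4 rose 1.51-fold, and Tlr3 was not called with TMM factors. The median log2 fold change was 2.19 over the 10 genes and -0.00 over all genes tested. For each of the 9 genes called, every IR heart lay above every SHAM heart, which held for 15.4% of the genes tested.

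Among the surface receptors, Tlr2 encodes the shared partner of the lipoprotein receptors. Tlr2 had 11.1 CPM at the lowest, 16.5 at the median and 25.9 at the highest in the 6 IR hearts, against 4.604, 5.97 and 6.14 CPM in the 6 SHAM hearts. It rose by 1.65 ± 0.25 (log2 fold change ± SE, adjusted p = 4.92e-05 with edgeR). Tlr1, which pairs with Tlr2 for triacylated lipoproteins, had 4.18, 8.76 and 12.4 CPM in IR hearts, against 0.358, 1.22 and 1.72 CPM in SHAM hearts (2.80 ± 0.40, adjusted p = 2.89e-05 with edgeR). The lowest IR heart was still above the highest SHAM heart. Tlr6, which pairs with Tlr2 for diacylated lipoproteins, had 1.89, 3.05 and 3.70 CPM in IR hearts, against 0.275, 0.601 and 1.05 CPM in SHAM hearts (2.19 ± 0.37, adjusted p = 8.21e-05 with edgeR). Tlr6 rested on few reads, 8 to 27 counts per SHAM library and 71 to 142 per IR library. Of the 50-base stretches of their transcripts, 15.3% in Tlr1 and 12.6% in Tlr6 recur in another gene, chiefly each other, and the sources used here do not say how reads with several matches were counted. The separate levels of Tlr1 and Tlr6 are uncertain to that extent.

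Tlr4 is the receptor for bacterial lipopolysaccharide. It had 32.4, 34.7 and 54.8 CPM in IR hearts, against 20.7, 23.7 and 31.2 CPM in SHAM hearts (0.59 ± 0.17, adjusted p = 0.00861 with edgeR). The groups did not overlap, but IR 6 stood far above the other 5 IR hearts, which reached 37.0 CPM. Without IR 6, Tlr4 was 0.46 higher and was still called (adjusted p = 0.026 with edgeR). This was the smallest change among the 9 genes called.

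Among the endosomal receptors, Tlr9, the sensor of unmethylated CpG DNA, had the largest change of the 10 genes. It had 1.92, 4.87 and 10.02 CPM in IR hearts, against 0.346, 0.468 and 1.27 CPM in SHAM hearts (3.17 ± 0.47, adjusted p = 3.82e-05 with edgeR). SHAM libraries held 9 to 37 Tlr9 counts each and IR libraries 72 to 390. The highest Tlr9 values were in IR 3 and IR 4, the IR libraries with Xist, and without the 3 Xist libraries Tlr9 rose by 2.66 (adjusted p = 0.000335 with edgeR).

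Tlr7 and Tlr8 are neighbours on the X chromosome; Tlr7 encodes a sensor of single-stranded RNA, and its relative Tlr8 is an RNA sensor in humans. Tlr8 had 16.3, 25.2 and 36.2 CPM in IR hearts, against 2.00, 2.72 and 6.84 CPM in SHAM hearts (2.96 ± 0.38, adjusted p = 1.61e-05 with edgeR). Tlr7 had 16.4, 24.4 and 32.0 CPM in IR hearts, against 3.28, 5.89 and 6.22 CPM in SHAM hearts (2.19 ± 0.27, adjusted p = 1.01e-05 with edgeR). For both genes the lowest IR heart was IR 3, and it stood well above the SHAM range. Tlr13, also X-linked, encodes the mouse sensor of bacterial ribosomal RNA. It had 12.3, 19.2 and 43.9 CPM in IR hearts, against 3.52, 4.08 and 4.89 CPM in SHAM hearts (2.51 ± 0.37, adjusted p = 5.23e-05 with edgeR). Tlr13 spread widely among IR hearts, with IR 6 and IR 4 highest, while SHAM hearts were tight. Without the 3 libraries with Xist, the X-linked genes rose by 2.34 (Tlr7), 3.05 (Tlr8) and 2.47 (Tlr13), each still called with edgeR.

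Tlr3, the sensor of double-stranded RNA and the only member here that does not use Myd88, had 12.1, 15.3 and 18.3 CPM in IR hearts, against 11.52, 13.6 and 14.4 CPM in SHAM hearts. The groups overlapped, with 3 of 6 IR hearts above the highest SHAM heart. The log2 difference was 0.20 ± 0.12 with a 95% interval of -0.06 to 0.46 (adjusted p = 0.206 with edgeR). Its call turned on the scaling: with total-count scaling, which moves the median of all genes to 0.31, Tlr3 was 0.51 higher (adjusted p = 0.00653 with edgeR). Exons of the gene model Gm45542 overlap Tlr3 on the opposite strand, and no source used here gives the strand setting of the counting.

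Myd88, the adaptor itself, had 20.9, 26.1 and 31.7 CPM in IR hearts, against 10.9, 11.46 and 15.6 CPM in SHAM hearts (1.12 ± 0.15, adjusted p = 1.47e-05 with edgeR). Every IR heart exceeded SHAM 5, the one SHAM heart that stood apart from the other 5. Exons of Acaa1a overlap Myd88 on the opposite strand, and 9.16% of the 50-base stretches of Myd88 recur there, so part of its count cannot be assigned without the strand setting.

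**Figure D1:**
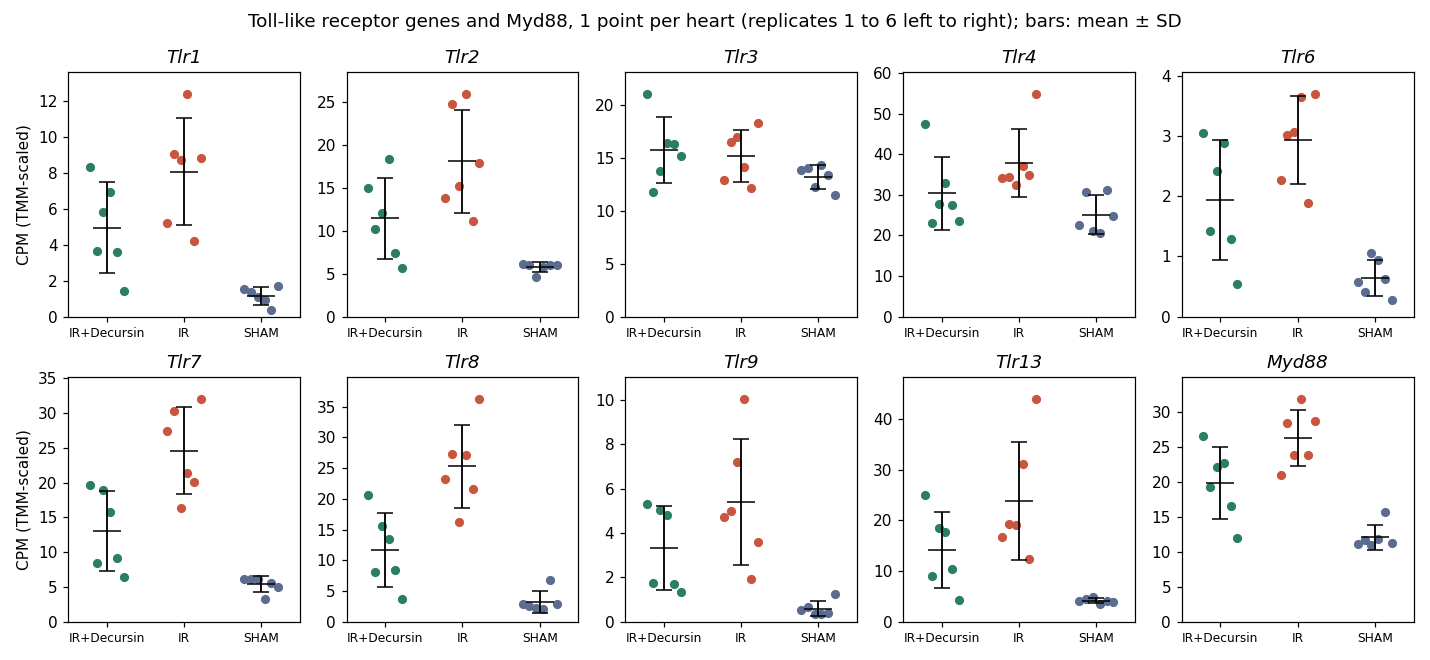
Level of each of the 10 genes in every heart, in CPM with TMM scaling on linear axes from 0. Each point is 1 heart, with replicates 1 to 6 from left to right in each group, and the bars give mean ± SD over 6 hearts. For every gene except Tlr3 the 6 IR hearts lie above the 6 SHAM hearts, and the IR+Decursin hearts run from inside the IR range downward to or toward the SHAM range.

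IR+Decursin hearts had lower mean levels than IR hearts for 9 of the 10 genes, but none of the 10 passed the test. Over all genes, 0 of 15088, or 0%, were called in either direction with edgeR, and 2712 had an unadjusted p under 0.05. Among the 10 genes, 5 had an unadjusted p under 0.05 with edgeR and 6 with DESeq2, which gave such a p for 2854 of all 15088 genes. The median log2 difference was -0.68 over the 10 genes and -0.02 over all genes tested. Without the 3 libraries with Xist the median was -0.39 over the 10 genes and -0.01 over all genes tested. In that fit 2 of the 10 genes and 1293 of all 15239 genes had an unadjusted p under 0.05 with edgeR. No gene of the 10 had every IR+Decursin heart below every IR heart, a pattern met by 0.245% of the genes tested.

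Tlr8 and Tlr7 had the largest differences. Tlr8 had 3.77 CPM at the lowest, 10.98 at the median and 20.7 at the highest in IR+Decursin hearts, against 16.3, 25.2 and 36.2 CPM in IR hearts. Of the 6 IR+Decursin hearts, 5 lay below the lowest IR heart, and IR+Decursin 1 lay inside the IR range. The log2 difference was -1.11 with a 95% interval of -1.84 to -0.38 (adjusted p = 0.144 with edgeR). Tlr7 had 6.42, 12.4 and 19.6 CPM in IR+Decursin hearts, against 16.4, 24.4 and 32.0 CPM in IR hearts, with 4 of 6 below the lowest IR heart. Its log2 difference was -0.91 with an interval of -1.45 to -0.37 (adjusted p = 0.122 with edgeR). With DESeq2, Tlr7 was called lower (-0.91, adjusted p = 0.0177), the only one of the 10, where 0.636% of all genes were called lower.

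For Tlr2 the IR+Decursin hearts had 5.68, 11.1 and 18.3 CPM, against 11.1, 16.5 and 25.9 CPM in IR hearts, a log2 difference of -0.66 (interval -1.17 to -0.15, adjusted p = 0.186 with edgeR). For Myd88 the IR+Decursin hearts had 11.9, 20.7 and 26.5 CPM, against 20.9, 26.1 and 31.7 CPM in IR hearts, a difference of -0.40 (interval -0.71 to -0.09, adjusted p = 0.188 with edgeR). For each of these genes, 3 of the 6 IR+Decursin hearts were below the lowest IR heart and the other 3 were inside the IR range. Tlr13 differed by -0.74 (interval -1.47 to -0.01, adjusted p = 0.271 with edgeR), with 4.36, 14.04 and 25.1 CPM in IR+Decursin hearts, against 12.3, 19.2 and 43.9 CPM in IR hearts. The intervals of these 3 genes and of Tlr7 and Tlr8 lay below 0 before adjustment for the number of genes. For Tlr13 this rested on single hearts: without IR 6 the difference was -0.47 ± 0.33 (unadjusted p = 0.166 with edgeR), and its unadjusted p was also above 0.05 without IR 4 or without IR+Decursin 2, 5 or 6.

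The intervals of the other 5 included 0. Tlr1 had 1.40, 4.72 and 8.31 CPM in IR+Decursin hearts, against 4.18, 8.76 and 12.4 CPM in IR hearts (-0.70, interval -1.46 to 0.06, adjusted p = 0.314 with edgeR). Tlr6 had 0.545, 1.92 and 3.05 CPM in IR+Decursin hearts, against 1.89, 3.05 and 3.70 CPM in IR hearts (-0.59, interval -1.30 to 0.11, adjusted p = 0.355 with edgeR). For each of these genes 3 of 6 hearts were below the IR range. Tlr4 had 23.1, 27.7 and 47.4 CPM in IR+Decursin hearts, against 32.4, 34.7 and 54.8 CPM in IR hearts (-0.32, interval -0.68 to 0.04, adjusted p = 0.328 with edgeR), and the difference was -0.18 without IR 6. Tlr9 had 1.32, 3.28 and 5.29 CPM in IR+Decursin hearts, against 1.92, 4.87 and 10.02 CPM in IR hearts (-0.70, interval -1.57 to 0.16, adjusted p = 0.372 with edgeR). Without the 3 libraries with Xist, which include both of the highest Tlr9 values, the Tlr9 difference was -0.06 (adjusted p = 0.973 with edgeR), and Tlr1 stood at -0.38, Tlr7 at -0.97 and Tlr8 at -1.12. Tlr3 had 11.8, 15.7 and 21.1 CPM in IR+Decursin hearts, against 12.1, 15.3 and 18.3 CPM in IR hearts (0.06, interval -0.20 to 0.31, adjusted p = 0.842 with edgeR), and its sign turned with total-count scaling to -0.03. At this spread between hearts, the differences observed for these 5 genes could not be told from 0.

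The number of calls between IR+Decursin and IR turned on the method and, with edgeR, chiefly on a single heart. With all hearts kept, edgeR called 0 genes and DESeq2 470. With edgeR, 976 were called without IR+Decursin 1 and 2 without IR+Decursin 4. IR+Decursin 1 was the highest of its group for 9 of the 10 genes, and it was at or above the lowest IR heart for all 10. Without it, 4 of the 10 genes were called lower with edgeR, among 1.84% of 15207 genes called lower. They were Tlr4 (-0.49, adjusted p = 0.0487), Tlr7 (-1.06, adjusted p = 0.03), Tlr8 (-1.35, adjusted p = 0.0372) and Myd88 (-0.50, adjusted p = 0.0466). Leaving out any of the other 11 libraries of these groups called none of the 10. At the other end, IR+Decursin 6 was the lowest of its group for 8 genes, and for Tlr1, Tlr2, Tlr4, Tlr6, Tlr8, Tlr13 and Myd88 it lay within or below the range of SHAM hearts. IR+Decursin 2 was at or above the lowest IR heart for 0 of the 10 genes and IR+Decursin 5 for 1.

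**Figure D2:**
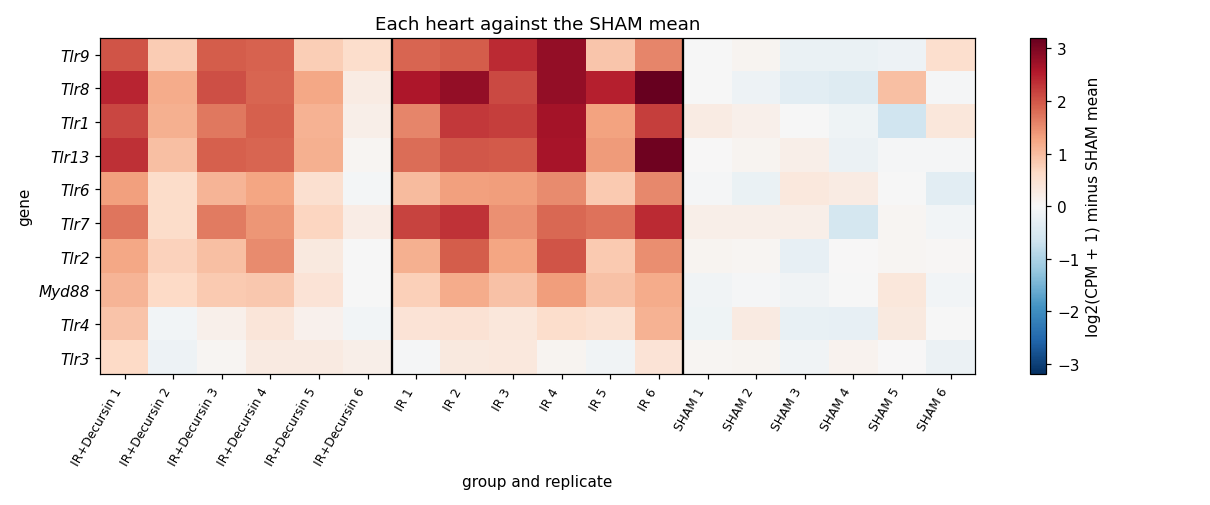
Level of the 10 genes in each of the 18 hearts as log2(CPM + 1) minus the mean of the 6 SHAM hearts, with genes in rows ordered by their change in IR and hearts in columns. Among IR+Decursin hearts, IR+Decursin 1 is highest for 9 genes and IR+Decursin 6 is lowest for 8; among IR hearts, IR 6 is highest for 6 and IR 4 for 4.

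Against SHAM, 8 of the 10 genes were higher in IR+Decursin hearts, where 17.5% of all genes tested were called higher. This comparison shares the SHAM libraries with the first and the IR+Decursin libraries with the second. Tlr9 rose by 2.47 ± 0.47 (adjusted p = 0.00123 with edgeR) and Tlr7 by 1.28 ± 0.27 (adjusted p = 0.00224 with edgeR), and for these 2 every IR+Decursin heart lay above every SHAM heart, as it did for 4.44% of the genes tested. Tlr1 rose by 2.10, Tlr8 by 1.85, Tlr13 by 1.77, Tlr6 by 1.60, Tlr2 by 0.99 and Myd88 by 0.72, with adjusted p of 0.00124 to 0.00708 with edgeR. For each of these 6 genes, 5 of 6 hearts lay above the highest SHAM heart, and the exception was IR+Decursin 6. Tlr4 was 0.27 higher (interval -0.09 to 0.64, adjusted p = 0.252 with edgeR) and Tlr3 0.25 higher (interval -0.01 to 0.51, adjusted p = 0.136 with edgeR), or 0.48 higher and called with total-count scaling. Tlr4 was thus called in IR but not in IR+Decursin hearts, and the direct difference between these groups did not pass the test.

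**Figure D3:**
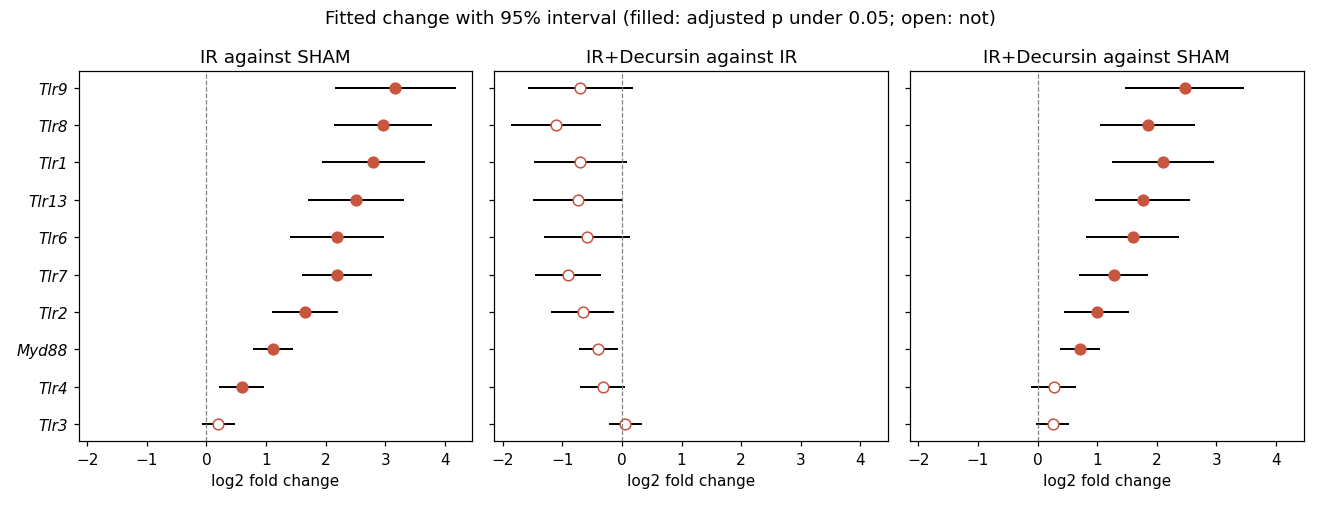
Fitted log2 fold change of each gene (point) with its 95% interval (line) in the 3 comparisons, from 1 edgeR fit over 18 libraries. Filled points have an adjusted p under 0.05 and open points do not. Filled points are 9 of 10 for IR against SHAM, 0 of 10 for IR+Decursin against IR and 8 of 10 for IR+Decursin against SHAM.

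Levels were compared between genes in the FPKM deposited by the authors, which divide the counts by a gene length. In SHAM hearts Myd88 was highest at 5.53 ± 0.964 FPKM (mean ± SD, n = 6), followed by Tlr4 at 2.65 ± 0.507, Tlr3 at 2.32 ± 0.212 and Tlr2 at 1.54 ± 0.146. Tlr13, Tlr7, Tlr8, Tlr1, Tlr9 and Tlr6 came next, between 0.919 and 0.127 FPKM. Only Myd88 and Tlr4, Tlr3 and Tlr2, and Tlr2 and Tlr13 were neighbours whose 6 values did not overlap. In IR hearts the receptor order was Tlr13 at 6.52 ± 3.24 FPKM, Tlr2 at 6.08 ± 2.31, Tlr8 at 5.15 ± 1.40, Tlr4 at 4.94 ± 1.08, Tlr7 at 4.86 ± 1.15 and Tlr3 at 3.29 ± 0.589, with Tlr1, Tlr9 and Tlr6 below, and all neighbours overlapped. Tlr4 and Tlr3, the leading receptor transcripts of SHAM hearts, thus had mean FPKM below Tlr13, Tlr2 and Tlr8 in IR hearts. The place of Tlr4 depends on the gene length used for the FPKM. By CPM, which take no account of length, Tlr4 had the largest mean share of the 9 receptors in IR hearts, at 23.8 ± 3.29%. Tlr8 held 15.7 ± 2.04%, Tlr13 14.1 ± 3.74%, Tlr2 11.2 ± 2.65% and Tlr3 9.61 ± 1.68% by CPM. In IR+Decursin hearts Tlr4 was at 3.79 ± 1.39 FPKM, Tlr13 at 3.77 ± 2.19, Tlr2 at 3.67 ± 1.70 and Tlr3 at 3.23 ± 0.819, and all neighbours overlapped there too.

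Summed over the 9 receptors, transcripts reached 106.7 ± 38.5 CPM with TMM scaling in IR+Decursin, 161.2 ± 36.6 in IR and 59.35 ± 6.74 in SHAM hearts. In FPKM, which carry no TMM scaling, the sum was 22.4 ± 9.86 in IR+Decursin, 36.1 ± 9.58 in IR and 9.42 ± 0.849 in SHAM hearts. The endosomal receptors (Tlr3, Tlr7, Tlr8, Tlr9 and Tlr13) made up 56.9 ± 3.42% of the FPKM sum in IR+Decursin, 59.8 ± 3.14% in IR and 50.9 ± 2.09% in SHAM hearts. The lowest IR heart, at 56.98%, was above the highest SHAM heart, at 54.2%, and the IR+Decursin hearts ran between 52.7% and 61.9%. Within the sum, Tlr8 held 9.75 ± 2.07% in IR+Decursin, 14.4 ± 2.34% in IR and 5.53 ± 2.61% in SHAM hearts. Tlr3 held 16.2 ± 5.80% in IR+Decursin, 9.40 ± 1.68% in IR and 24.7 ± 2.94% in SHAM hearts, and Tlr4 held 18.0 ± 3.93% in IR+Decursin, 14.1 ± 2.51% in IR and 28.0 ± 2.88% in SHAM hearts. The share of Tlr2 differed by less than its spread, at 16.4 ± 3.23% in IR+Decursin, 16.7 ± 3.39% in IR and 16.4 ± 1.51% in SHAM hearts. No test was made on these shares, since a larger share of one receptor lowers the others by construction.

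Markers of macrophages and of several, but not all, other cell types moved with these genes. Of 12 macrophage markers, 11 were called higher in IR+Decursin than in SHAM and 11 in IR than in SHAM with edgeR, the exception in both being Cd163. Their summed level was 700.6 to 1924 CPM in IR+Decursin, 1499 to 3015 CPM in IR and 497.8 to 689.6 CPM in SHAM hearts, and none was at 0 in any group. As a mean of log2(CPM + 1) over the 12, their level was 6.10 ± 0.544 in IR+Decursin, 6.61 ± 0.319 in IR and 4.99 ± 0.186 in SHAM hearts. IR+Decursin 6, the heart with the lowest values for 8 of the 10 genes, was at 5.19 on this scale and IR+Decursin 1 at 6.62. The 4 monocyte markers were all called higher in IR and in IR+Decursin than in SHAM, with sums of 8.05 to 105.9 CPM in IR+Decursin, 42.5 to 180.8 in IR and 2.96 to 8.94 in SHAM hearts. Markers of neutrophils summed to 2.88 to 59.2 CPM in IR+Decursin, 19.1 to 109.5 in IR and 1.58 to 20.2 in SHAM hearts. The 3 markers of plasmacytoid dendritic cells, which are rich in Tlr7 and Tlr9, did not reach the count filter and summed to at most 0.375 CPM in IR+Decursin, 0.591 CPM in IR and 0.283 CPM in SHAM hearts. Markers of some cells other than myeloid ones moved too. The 6 fibroblast markers summed to 1174 to 4146 CPM in IR+Decursin, 3337 to 3982 CPM in IR and 981.5 to 1179 CPM in SHAM hearts, and here too IR+Decursin 1 was the highest and IR+Decursin 6 the lowest of its group. Of these 6 markers, 6 were called higher in IR and 5 in IR+Decursin than in SHAM. Markers of T and NK cells summed to 2.69 to 5.63 CPM in IR+Decursin, 2.85 to 12.3 in IR and 0.876 to 1.78 in SHAM hearts, and all 6 tested were called higher in IR than in SHAM. Markers of B cells summed to 1.56 to 6.13 CPM in IR+Decursin, 4.43 to 7.58 in IR and 1.82 to 3.27 in SHAM hearts, with 1 of 5 tested called higher in IR. Of 5 dendritic cell markers tested, 3 were called higher in IR than in SHAM. Other lists did not rise in IR against SHAM. Of 6 endothelial markers, 0 were called higher and 2 lower, and of 4 smooth muscle and pericyte markers, 0 were called higher and 3 lower. All 7 cardiomyocyte markers were called lower. The part of any of these cells in the results was not tested.

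Each gene was also set against the macrophage markers of the same heart, as its log2(CPM + 1) minus their mean. On this measure 89.9% of the genes tested had every IR heart below every SHAM heart, and 0.577% had every IR heart above. Tlr3 (-1.45), Tlr4 (-1.05) and Myd88 (-0.57) were lower in IR than in SHAM, each in 6 of 6 hearts, so they rose less than the markers or not at all. Tlr8 was 1.06 higher in IR than in SHAM, with 4 of 6 IR hearts above every SHAM heart, and Tlr13 was 0.52 higher, with 5 of 6 above. Tlr1 (0.42), Tlr7 (0.36) and Tlr9 (0.29) were higher, and Tlr2 (-0.17) and Tlr6 (-0.36) lower, with overlap. For genes this low the pseudocount sets the size: on log2(CPM + 0.1), Tlr1 was 1.07 and Tlr9 1.26 higher, and Tlr6 turned to 0.43 higher. Between IR+Decursin and IR, Tlr8 differed by -0.67, with 5 of 6 IR+Decursin hearts below every IR heart, and Tlr7 by -0.43, with 2 of 6 below. Tlr3 was 0.55 higher, with 4 of 6 IR+Decursin hearts above every IR heart. The mean level of the markers themselves was lower in IR+Decursin (6.10) than in IR (6.61), so a gene that differs little by CPM is higher on this base. The remaining genes differed by -0.26 to 0.17. The share of all genes with such patterns between IR+Decursin and IR was not counted. Set against the 4 monocyte markers instead, all 10 genes were lower in IR than in SHAM, Tlr8 least at -0.49. The monocyte markers rose by a median log2 fold change of 4.25 in IR against SHAM, and the macrophage markers by 1.56. A gene that rose less than the monocyte markers is lower on that base, and the share of all genes lower on it was not counted. The signs of Tlr1, Tlr7, Tlr8, Tlr9 and Tlr13 thus depend on which cells are taken as the base. Between IR+Decursin and IR on the monocyte base, Tlr8 differed by -0.19 with no heart outside the IR range on the low side, and Tlr7 by 0.04, so the difference of Tlr8 was smaller there and the sign of Tlr7 turned.

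**Figure D4:**
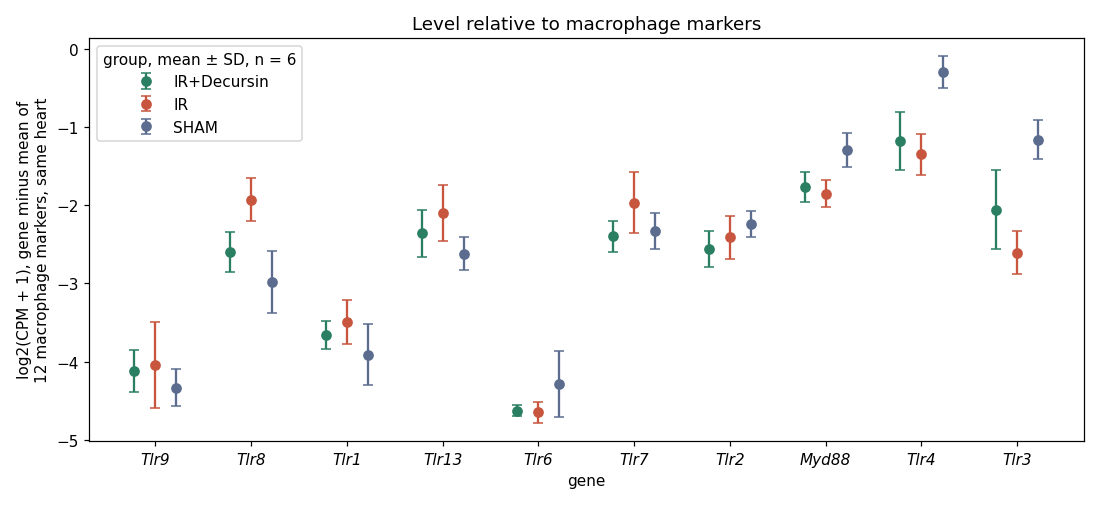
Level of each gene relative to macrophage markers, as log2(CPM + 1) of the gene minus the mean of 12 markers in the same heart, given as mean ± SD over 6 hearts per group. Tlr3, Tlr4 and Myd88 are lower in IR than in SHAM on this scale, and the mean of Tlr8 is highest in IR.

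The promoters of the 10 genes, 9 of which rose together in IR hearts, were looked up in RefSeq for the motifs of myeloid and inflammatory factors. RefSeq windows of the older build GRCm38.p6, which is not the build of the counts, were used, 10 windows for 8 of the 10 genes, the exceptions being Tlr4 and Tlr7. The bases before the start of transcription were searched on both strands for the PU.1 core GAGGAA, a factor of myeloid cells, for the AP-1 site TGANTCA, for the interferon-stimulated response element GAAANNGAAA and for the NF-kappaB site GGGNNTTTCC. Capitals mark the matches, a core read on the other strand appears as its reverse complement, and stretches are shown 5' to 3' along the gene, cut where an annotated transcript begins. The PU.1 core was found before Tlr1 (chr5:64933564-64933808, minus strand), Tlr8 (chrX:167264330-167264579, minus strand), Tlr9 (chr9:106222348-106222597, plus strand) and Tlr13 (chrX:106143025-106143203, plus strand).
Tlr1: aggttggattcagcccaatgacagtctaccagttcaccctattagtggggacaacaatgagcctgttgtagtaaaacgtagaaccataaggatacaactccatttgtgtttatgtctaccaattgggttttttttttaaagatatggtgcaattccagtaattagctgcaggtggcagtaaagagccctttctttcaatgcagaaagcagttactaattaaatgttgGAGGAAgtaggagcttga
Tlr8: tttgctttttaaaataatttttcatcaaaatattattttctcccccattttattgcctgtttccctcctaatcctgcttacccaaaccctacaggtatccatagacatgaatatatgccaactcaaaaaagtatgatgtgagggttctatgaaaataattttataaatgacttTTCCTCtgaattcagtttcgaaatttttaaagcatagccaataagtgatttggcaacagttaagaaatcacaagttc
Tlr9: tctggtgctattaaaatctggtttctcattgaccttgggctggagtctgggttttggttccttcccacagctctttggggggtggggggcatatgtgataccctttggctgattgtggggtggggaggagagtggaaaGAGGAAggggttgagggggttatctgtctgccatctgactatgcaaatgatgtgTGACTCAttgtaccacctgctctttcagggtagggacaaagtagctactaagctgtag
Tlr13: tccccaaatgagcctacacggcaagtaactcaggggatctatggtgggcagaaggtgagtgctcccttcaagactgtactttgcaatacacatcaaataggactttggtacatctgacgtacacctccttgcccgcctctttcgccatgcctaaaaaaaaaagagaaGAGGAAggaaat
The second block of capitals in Tlr9 is an AP-1 match. The interferon-stimulated element was found before Tlr6 (chr5:64959167-64959416, minus strand), as overlapping matches, and before Myd88 (chr9:119340042-119340268, minus strand).
Tlr6: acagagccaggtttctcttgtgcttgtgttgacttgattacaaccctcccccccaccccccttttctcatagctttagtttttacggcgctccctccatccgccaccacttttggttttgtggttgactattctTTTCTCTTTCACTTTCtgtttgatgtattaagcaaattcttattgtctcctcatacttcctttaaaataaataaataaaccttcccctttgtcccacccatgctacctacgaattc
Myd88: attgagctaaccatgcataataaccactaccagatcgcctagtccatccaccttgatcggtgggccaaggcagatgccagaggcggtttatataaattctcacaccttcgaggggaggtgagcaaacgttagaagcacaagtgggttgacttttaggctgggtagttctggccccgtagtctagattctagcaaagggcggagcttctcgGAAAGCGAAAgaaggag
Of 32851 windows of the same 250 bases over all genes, 23.3% held the PU.1 core and 6.75% the AP-1 site. The interferon-stimulated element was in 2.98% and the NF-kappaB site in 1.41%. The only NF-kappaB match was in the uncut window of Tlr3, the gene that was not called. It lay at -211 to -202 from the RefSeq start, where an annotated transcript of Tlr3 had already begun, so it is not shown. The 4 genes with the PU.1 core include the 3 with the largest change in IR hearts. A further window of Tlr1 (chr5:64932762-64932949, minus strand) held no match, and the shares above count windows, not genes. Whether the core goes with the size of the change was not tested. Over all genes tested with a window, 28.4% of the 3099 with the core and 24.2% of the 8654 without it were called higher in IR than in SHAM. A match of letters describes the sequence and does not show that a factor binds there.

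The genes most like each of the 10 were found by the root mean square difference between log2(CPM + 1) profiles over the 18 libraries, each centred on its own mean, among 13526 genes. Tlr1 was closest to Otulinl and the lectin gene Clec4a1 (differences of 0.191 and 0.217), and Tlr13 to the leukocyte genes Lcp1 and Cd53 (0.191 and 0.197). Tlr8 was closest to Pirb and Csf2rb2 (0.289 and 0.299), which encode an inhibitory receptor and a cytokine receptor chain of myeloid cells, and Tlr9 to the interleukin-10 receptor gene Il10ra and to Ly86 (0.284 and 0.289). Tlr2 was nearest to Pygl and Sirpb1b, Tlr7 to Pdpn and Ugt1a7c, and Tlr6 to Rcn1 and Serp1. Myd88 was closest to Notch2 and Ptpn1 (0.109 and 0.110), Tlr4 to Picalm and Uhrf2, and Tlr3 to Lats1 and Asah2. Genes with little change over all libraries have small differences from one another, so the measures of Myd88, Tlr4 and Tlr3 cannot be set beside those of Tlr8. Within the 10, Tlr6 and Myd88 had the smallest difference (0.234) and Tlr3 and Tlr8 the largest (1.14), with the same limit. Tlr6 reached at most 3.70 CPM in IR hearts, so the pseudocount of 1 also reduces its changes on this scale. Its log2 fold change in IR against SHAM was 2.19 with edgeR, against 1.12 for Myd88. The small difference between Tlr6 and Myd88 thus does not show that they changed alike, and the genes nearest to Tlr6 carry the same limit.

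The rest of the pathway was examined from lists of named genes, counted by edgeR calls. Over all genes tested, 25.3% were called higher and 21.7% lower in IR than in SHAM, and 17.5% higher and 11.8% lower in IR+Decursin than in SHAM. Of the other receptors, Tlr5, the flagellin receptor, was higher in IR at 2.30 ± 0.878 CPM, against 1.03 ± 0.393 CPM in SHAM (1.16 ± 0.32, adjusted p = 0.00601 with edgeR), while Tlr11 and Tlr12 had at most 13 and 17 counts in any library and were not tested. Of 6 co-receptors, 4 rose and none fell in IR against SHAM, and the same numbers held in IR+Decursin against SHAM. Cd14, which hands lipopolysaccharide to Tlr4, rose by 1.81 ± 0.31 in IR (adjusted p = 0.00017 with edgeR), and Lbp, the plasma protein before it in that chain, by 0.96 ± 0.18 (adjusted p = 0.000203 with edgeR). Ly96, the obligate partner of Tlr4, differed by 0.49 (adjusted p = 0.11 with edgeR, 0.0125 with total-count scaling) and the scavenger receptor gene Cd36 by -0.16 (adjusted p = 0.266 with edgeR), at 0.14 with total-count scaling. The other 3 adaptors tested all rose in IR: Ticam2, which links Tlr4 to Ticam1, by 2.10 ± 0.32, Tirap, which bridges Tlr2 and Tlr4 to Myd88, by 0.44 ± 0.13, and Ticam1 by 0.36 ± 0.14, with adjusted p of 3.51e-05, 0.00736 and 0.0374 with edgeR.

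Of 9 genes for trafficking and processing of endosomal receptors, 8 rose in IR and 6 in IR+Decursin against SHAM, and none fell. Unc93b1, which carries these receptors to endosomes, had 69.3 ± 18.3 CPM in IR and 22.2 ± 2.86 CPM in SHAM hearts (1.64 ± 0.21, adjusted p = 1.35e-05 with edgeR), and 47.1 ± 15.4 CPM in IR+Decursin hearts. Of the receptor chaperone genes, Cnpy3 rose by 0.65 (adjusted p = 1.09e-05 with edgeR). Hsp90b1 was at 0.36 and not called with TMM factors (adjusted p = 0.0543 with edgeR), and it was called with total-count scaling (0.66). The endosomal transporter gene Slc15a4 rose by 0.49 (adjusted p = 0.000949 with edgeR).

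Downstream of Myd88 the kinases and ubiquitin ligases went both ways, with 7 of 18 higher and 4 lower in IR than in SHAM, and 3 higher and 2 lower in IR+Decursin than in SHAM, where the shares over all genes are 25.3% and 21.7% for IR and 17.5% and 11.8% for IR+Decursin. Irak4, the first kinase recruited by Myd88, rose by 1.12 ± 0.17 (adjusted p = 3.97e-05 with edgeR), and Irak1, its substrate, fell by 0.28 (adjusted p = 0.0032 with edgeR), each in 6 of 6 hearts. Irak2 (0.12) and Traf6 (0.03) were not called with TMM factors, and both were with total-count scaling (0.44 and 0.33). Of 11 transcription factors 10 rose in IR and 8 in IR+Decursin against SHAM. Nfkb2 rose by 0.78, Rel by 0.50, Nfkb1 by 0.35 and Rela by 0.22 in IR, with adjusted p of 1.7e-05, 0.0227, 0.000105 and 0.0134 with edgeR. Of 13 negative regulators 6 rose and 1 fell in IR. Irak3, a brake on Irak1 and Irak4, rose by 0.97 and Tnfaip3 by 0.95 (adjusted p = 0.000228 and 0.00347 with edgeR), Tollip fell by 0.35 (adjusted p = 0.00178 with edgeR), and Nfkbia was at 0.17 (adjusted p = 0.392 with edgeR), or 0.48 and called with total-count scaling. With total-count scaling no kinase, ligase or negative regulator was called lower, and 11 of the 18 and 10 of the 13 were called higher. Of the 15088 genes tested, 7012 were called higher and 1056 lower with that scaling. Irak1 was then at 0.02 (adjusted p = 0.842 with edgeR) and Tollip at -0.05 (adjusted p = 0.629 with edgeR). The falls of Irak1 and Tollip thus hold relative to the median of all genes only.

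Of the 6 interleukin-1 family receptors that also signal through Myd88, 5 rose in IR and 4 in IR+Decursin against SHAM. Il1r1 had 52.2 ± 11.7 CPM in IR and 16.9 ± 4.70 CPM in SHAM hearts (1.63 ± 0.30, adjusted p = 0.000364 with edgeR), and Il1rap, Il18r1 and Il18rap rose too. Among 7 endogenous ligands 3 rose and 1 fell in IR, against 25.3% and 21.7% of all genes. The proteoglycan gene Bgn, whose product binds Tlr2 and Tlr4, had 782.2 ± 188.5 CPM in IR and 327.4 ± 37.5 CPM in SHAM hearts (1.26 ± 0.19, adjusted p = 2.86e-05 with edgeR), whereas S100a8 (2.18, adjusted p = 0.0977 with edgeR), S100a9 (1.96, adjusted p = 0.117 with edgeR) and Hmgb1 (0.04, adjusted p = 0.715 with edgeR) were not called, though Hmgb1 was with total-count scaling (0.35). Of 20 target genes, 15 were tested; 14 rose in IR and 8 in IR+Decursin against SHAM. Il1b rose by 3.05, Ccl2 by 3.22 and Tnf by 1.47 in IR, with adjusted p of 0.0029, 0.000114 and 0.00421 with edgeR. Il6 had 531 counts over the 6 IR libraries and 1 over the 6 SHAM libraries, a scaled ratio of 414.7 (95% interval 74.1 to 16410, counting error only). Tnf had 0.446 ± 0.221 CPM in IR+Decursin, 1.19 ± 0.500 CPM in IR and 0.427 ± 0.205 CPM in SHAM hearts, and its difference between IR+Decursin and IR was -1.39 ± 0.38 (adjusted p = 0.111 with edgeR). In IR+Decursin against IR, 0 genes of any of these lists were called with edgeR.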

How the data were processed

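The samples are 18 mouse hearts in 3 groups of 6, as the labels group them, each from its own animal. Per symbol, the authors deposited raw counts and FPKM, which equal the counts divided by gene length and library total (largest relative deviation 1.58e-09) and so carry no correction for library make-up. The submitters' processing notes name fastp, HISAT2 and HTSeq and the build GRCm39. The sources used here do not give versions, the strand setting or the handling of reads with several matches.

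The tests used edgeR 4.0.16 (R 4.3.3) on the deposited counts: filterByExpr by group (15088 of 25731 symbols), TMM factors, 1 quasi-likelihood fit of the 3 group means over 18 libraries (15 residual degrees of freedom), a two-sided F-test and Benjamini-Hochberg adjustment over all genes tested, called at 0.05. The code was tested on simulated data. Intervals of 95% come from that fit. With 27.5 to 35.0 M counts per library, genes with few counts, such as Tlr6 and Tlr9 in SHAM, are the least precise. Levels relative to macrophage markers use log2(CPM + 1). Alternatives were DESeq2 1.42.0, limma 3.58.1 (voom with quality weights; trend on log2(FPKM + 1) and log2(FPKM + 0.1)), other scalings and filters, the replicate number as a block, leaving out each library, and leaving out the libraries with over 1000 Xist counts.

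All 10 genes are named. Of each of 10 pathway lists the first 4 tested members as written are named and the rest counted, and the 2 most alike genes per member are named. The genes, lists and tests were chosen with earlier results of these data known. Transcript overlaps and 50-base stretches came from a GENCODE annotation, and promoters from RefSeq, of the older build GRCm38.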

Additional observations from a re-analysis of the deposited data

Results flagged for a closer look

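In 5 of the 30 sets of 6 hearts (10 genes in 3 groups), 1 heart stood apart from the other 5 by more than Dixon's 95% limit. Chance gives about 1 in 20 for independent sets of normal values. The 10 genes were measured in the same hearts, so the sets are not independent and their number cannot be set against that rate. Tlr4 in IR 6 was at 54.8 CPM, against 32.4 to 37.0 CPM in the other 5 IR hearts. Tlr8 in SHAM 5 was at 6.84 CPM, against 2.00 to 2.95 CPM in the other SHAM hearts, and Myd88 in the same heart was at 15.6 CPM, against 10.9 to 11.9 CPM. Neutrophil markers summed to 20.2 CPM in SHAM 5, the highest of the SHAM hearts; their part in these values was not tested. Tlr9 in SHAM 6 was at 1.27 CPM, against 0.346 to 0.657 CPM, and Tlr2 in SHAM 3 at 4.604 CPM, against 5.74 to 6.14 CPM.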

How the results depend on the processing

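With every alternative, the 9 genes other than Tlr3 were called higher in IR than in SHAM, and the 8 genes other than Tlr3 and Tlr4 in IR+Decursin than in SHAM; Tlr6 and Tlr9 gave no value under the minimum of 1 FPKM. With 1 library left out, 9 and 8 members were called in each case. For IR+Decursin against IR, 0 genes were called with edgeR, 470 with DESeq2 (1 of them Tlr7) and 0 to 976 with 1 library left out, holding 0 to 4 of the 10 members; 976 came without IR+Decursin 1, and the cause was not tested. Tlr3 turned to -0.0266 there with total-count scaling, to -0.0296 on log2(FPKM + 1) with and without the FPKM minimum and to -0.0401 on log2(FPKM + 0.1), and ran from -0.0451 to 0.13 with 1 library left out. Tlr3 was called with total-count scaling and on FPKM in IR against SHAM (0.36 to 0.51) and in IR+Decursin against SHAM (0.33 to 0.48). These settings omit TMM factors: with total counts the median of all genes moved to 0.31 for IR and 0.22 for IR+Decursin against SHAM, and calls split 7012 higher to 1056 lower against 3810 to 3269, and 4781 to 377 against 2647 to 1774. On log2(FPKM + 1) they split 6901 to 1089 and 3936 to 395. The median level of the 10 genes relative to macrophage markers was 0.12 (IR minus SHAM), -0.16 (IR+Decursin minus IR) and -0.03 (IR+Decursin minus SHAM). Against monocyte markers these were -1.42, 0.32 and -1.10, and with log2(CPM + 0.1) the last was 0.057. The endosomal share differed by 8.92 percentage points between IR and SHAM per FPKM and 13.2 per CPM. Deviations from the group means correlated from -0.52 to 0.41 between same-numbered libraries. Libraries of different numbers were not set beside them, so these values cannot show whether the numbers pair the libraries. With the replicate block, 6715, 0 and 3873 genes were called in the 3 comparisons, against 7079, 0 and 4421 without it, and 9, 0 and 8 of the 10 members with it. Small counts of Tlr6 and Tlr9, the shared sequence of Tlr1 and Tlr6, the opposite-strand neighbours of Tlr3 and Myd88, and 1 batch per group limit these values.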
